A study of Mus musculus with 6 samples.

Results

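The genes described here encode enzymes, regulators and transporters of cholesterol and fatty acid synthesis, 35 in all of the 33682 rows of the expression table. They were taken by symbol for their known function, with earlier results of these data known, and every symbol matched 1 row. The 22 genes of the sterol branch comprise 14 synthesis enzymes, 5 regulators and 3 transport genes, with Srebf1, which serves both branches, counted among the regulators. The 13 genes of the fatty acid branch make, desaturate, elongate and activate fatty acids. RNA came from neonatal rat heart cells in culture, all of genotype WT, that had received the conditioned medium of bone marrow-derived mast cells, with 3 samples per group. In the WT medium group the mast cells were wild type, and in the Alox5KO medium group they were ALOX5-/-, without 5-lipoxygenase, the enzyme that starts leukotriene synthesis. The mast cells (BMMCs in the labels) of both groups had been treated with TNF-a, an inflammatory cytokine, and no culture without mast cell medium is analysed here. The labels call the cultures cardiomyocytes (NRCMs), while the design text of the series names fibroblasts (NRCFs), and the organism field says mouse although the genes of the table are rat. The labels do not say that replicates were separate cultures. The p-values set the difference between the groups against the spread within them, which may be technical, so they speak for these samples only.

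Cells make cholesterol from acetyl-CoA through mevalonate, squalene and lanosterol. The transcription factors SREBP-1 and SREBP-2, encoded by Srebf1 and Srebf2, are held in the endoplasmic reticulum by Insig proteins when sterols are plentiful. When sterols are scarce, Scap escorts them to the Golgi, where they are cut and released to switch on synthesis genes. Oxysterols act in the other direction through the nuclear receptors called LXRs, which induce cholesterol export by Abca1 and Abcg1 and also Srebf1 and stearoyl-CoA desaturase. In fibroblasts these pathways supply membrane lipids and set the unsaturation of fatty acyl chains.

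The libraries held between 13284088 and 15766187 reads. All 10 fibroblast markers had a mean of at least 1 FPKM (fragments counted to a gene, scaled for its length and for the depth of the library), and their summed level ran from 10719.9 to 11241 FPKM in WT medium and from 10939.9 to 12683 FPKM in Alox5KO medium, led by the collagen Col1a1. That sum hides opposite shifts, since 4 of the 10 were called higher and 3 lower, beside 10.0% and 10.6% of all tested genes. The median level of the 10 markers was 871 to 954 FPKM in WT medium and 453 to 536 FPKM in Alox5KO medium. Dcn, the proteoglycan decorin, which is named here because of its values, had 2731, 2519 and 1407 FPKM and then 118, 207 and 76.9 FPKM, and fell by 4.10 on the log2 scale (limma adjusted p = 0.0021). Of 10 cardiomyocyte markers, 4 were higher and 0 lower among 7 tested, beside 10.0% and 10.6% of all tested genes. Their sums of 32.0 to 56.5 and 104 to 129 FPKM were led by the troponin Tnnt2, which alone had means of 23.0 and 79.9 FPKM. Another 3 of the 10 had a mean under 1 FPKM. Also called higher were Actc1, from a mean of 3.36 FPKM in WT medium to 13.3 in Alox5KO medium, and Pln, from 0.596 to 2.63 (limma adjusted p = 8.7e-04 and 0.0019). The myosin Myh7 went from 0.744 to 1.86 FPKM and was called higher (limma adjusted p = 0.024). Myh6 went from 0.781 to 1.70 FPKM without overlap and was not called (limma adjusted p = 0.073). Nppa and Nppb were not called. The cardiomyocyte markers other than Tnnt2 are named here because of their values. Of 7 smooth muscle and pericyte markers 5 of 6 tested were higher, beside 10.0% of all tested genes. They were led by calponin (Cnn1), with sums of 43.7 to 63.4 and 143 to 260.2 FPKM. The 5 adipocyte markers, led by Cidec, summed to at most 0.389 FPKM in any library, and 5 of 7 macrophage markers had a mean under 1 FPKM, with sums of 10.4 to 15.9 and 9.69 to 21.1 FPKM, led by Lyz2. The 5 endothelial markers in the table, led by Tek, summed to 4.44 to 6.54 and 2.74 to 3.67 FPKM. Of 7 mast cell markers 6 had a mean under 1 FPKM, and Tpsb2, Fcer1a and Ms4a2 were listed at 0 in every library. The carboxypeptidase gene Cpa3 had 45.4 ± 7.69 FPKM in WT medium and 19.6 ± 4.19 in Alox5KO medium (SD, n = 3 per group). Kit, under the filter and not tested, went the other way without overlap, at 0.618 ± 0.133 and 1.01 ± 0.280 FPKM (SD, n = 3 per group). The mast cell markers other than Cpa3 are named here because of their values. The part of these shifts in the results below was not tested, and in bulk RNA fewer cells of a type cannot be told apart from less RNA per cell.

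The members were called about as often as all tested genes. Their largest changes on the log2(FPKM + 1) scale were falls of the desaturase Scd and the sterol exporter Abcg1 and a rise of the exporter Abca1 in Alox5KO medium. Of the 33 members that passed the filter of a mean of at least 1 FPKM over the 6 samples, 7 passed the test (limma on log2(FPKM + 1), Benjamini-Hochberg adjusted p under 0.05 over all 12341 genes tested). This share, 21.2%, lay beside 20.7% of all tested genes, a share near the background. The median log2 fold change, always Alox5KO medium minus WT medium, was -0.13 over the 33 members and -0.00082 over all tested genes. The median size of the change without its sign was 0.19 for the members and 0.20 for all tested genes. Calls in the sterol branch went both ways, with 2 of 22 higher (Abca1 and Sqle) and 2 lower (Mvd and Abcg1). In the fatty acid branch 3 of the 11 tested members were lower (Scd, Scd2 and Acly) and 0 higher. Of all tested genes 10.0% were called higher and 10.6% lower. The remaining members of that branch, Elovl6 and Lpin1, lay under the filter.

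**Figure D1:**
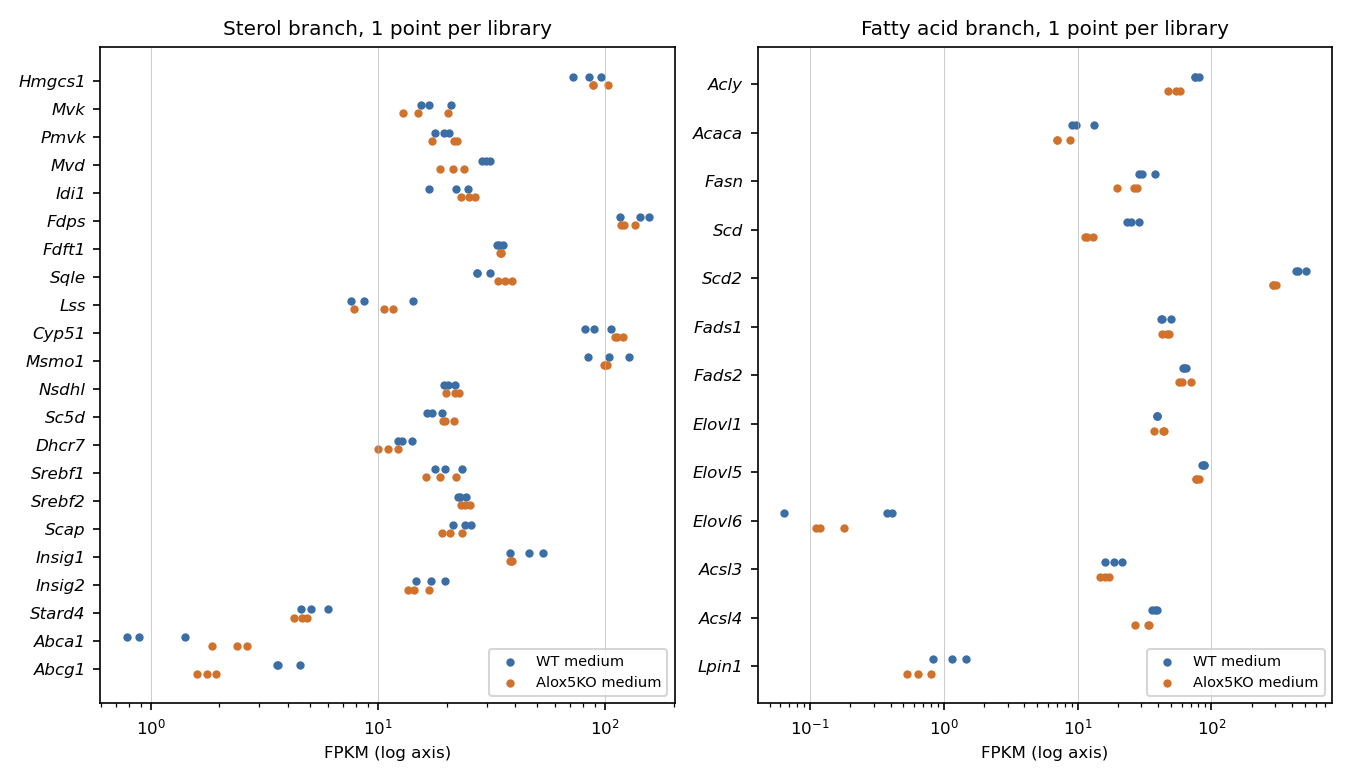
FPKM of each member on a log axis, with 1 point per library, blue for the 3 WT medium libraries and orange for the 3 Alox5KO medium libraries. The groups lie apart for 15 of the 35 members. Among these are the 5 called lower in Alox5KO medium (Scd, Scd2, Acly, Mvd and Abcg1) and the 2 called higher (Abca1 and Sqle). Of the tested members 42.4% did not overlap, beside 37.6% of all tested genes.

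The steps from acetyl-CoA to farnesyl diphosphate are catalysed by the mevalonate enzymes, of which 6 are members. Fdps, farnesyl diphosphate synthase, was the most abundant gene of the sterol branch, at 142, 155 and 117 FPKM in WT medium and 118, 121 and 136 FPKM in Alox5KO medium. Its groups overlapped, and the log2 fold change of -0.13 had a 95% interval from -0.42 to 0.15. Mvd, mevalonate diphosphate decarboxylase, had 31.1, 29.9 and 28.6 FPKM in WT medium and 18.7, 21.3 and 23.9 FPKM in Alox5KO medium. Every Alox5KO-medium library was below every WT-medium library, and Mvd fell by 0.47 on the log2 scale (SE 0.11, limma, Benjamini-Hochberg adjusted p = 0.014). Mvd no longer passed once WT-medium replicate 1 was left out, at an adjusted p of 0.068 (limma). Hmgcs1, HMG-CoA synthase, which opens the pathway, had 84.8, 95.4 and 72.4 FPKM and then 102, 88.4 and 88.4 FPKM, and its log2 fold change of 0.15 did not pass (interval -0.13 to 0.42). The isomerase gene Idi1 had a log2 fold change of 0.24 with an interval from -0.08 to 0.56. The kinase genes Mvk and Pmvk had -0.14 and 0.08, and neither passed. These 5 genes overlapped between groups, and Mvd alone of the 6 mevalonate enzymes did not, beside 37.6% of all tested genes without overlap.

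The 8 enzymes that turn farnesyl diphosphate into cholesterol included a single called gene, Sqle, squalene epoxidase, a control point of the pathway. That is 12.5% called, beside 20.7% of all tested genes. Sqle had 27.2, 31.2 and 27.1 FPKM in WT medium and 36.1, 33.7 and 39.0 FPKM in Alox5KO medium. The groups did not overlap, and the log2 fold change of 0.34 (SE 0.10) had a limma adjusted p of 0.046, close to the threshold. The Sqle call was lost in 9 of 16 alternatives, 5 of which left out 1 library: each of the 3 WT-medium libraries and Alox5KO-medium replicates 1 and 3, with adjusted p from 0.053 to 0.18 (limma). Cyp51, lanosterol demethylase, went from 89.5, 106 and 81.8 FPKM to 112, 111 and 119.6 FPKM. Its groups did not overlap either, but its log2 fold change of 0.31 (SE 0.11) had a limma adjusted p of 0.086 and did not pass. Cyp51 passed under 4 alternatives, among them quantile normalization (adjusted p = 0.021) and without WT-medium replicate 2 (0.046, both limma).

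Fdft1, squalene synthase, was the steadiest of these enzymes, at 34.1, 35.6 and 33.2 FPKM in WT medium and 34.5, 34.6 and 34.6 FPKM in Alox5KO medium, a log2 fold change of 0.013 with an interval from -0.18 to 0.20. Msmo1, which removes methyl groups at carbon 4 of the sterol, spread over 103, 127 and 83.6 FPKM in WT medium and over 99.7, 101.3 and 98.4 FPKM in Alox5KO medium, so the Alox5KO-medium values lay inside the WT-medium range. Sc5d, a sterol desaturase, had 17.3, 19.1 and 16.4 FPKM and then 21.6, 19.2 and 19.8 FPKM, without overlap, and did not pass (log2 fold change 0.19, limma adjusted p = 0.23). Dhcr7, which catalyses the last step, had 12.7, 14.0 and 12.3 FPKM and then 10.0, 11.1 and 12.2 FPKM, also without overlap, and did not pass (log2 fold change -0.21, limma adjusted p = 0.22). Lss, lanosterol synthase, and Nsdhl, a sterol dehydrogenase, had log2 fold changes of 0.010 and 0.064. The interval for Lss was wide, from -0.53 to 0.55, so a change of moderate size in Lss was not detectable here. Groups of 3 did not overlap for 14 of the 33 tested members, beside 37.6% of all tested genes.

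Summed over the 14 synthesis enzymes, the level was 631 ± 71.3 FPKM in WT medium and 648 ± 21.9 FPKM in Alox5KO medium (SD, n = 3 per group). The 3 Alox5KO-medium sums, 649, 626 and 670.0 FPKM, lay within the WT-medium range of 561 to 703 FPKM. Changes of Mvd and Sqle in opposite directions left the ratio of Sqle to Mvd at 0.956 ± 0.0850 in WT medium and 1.71 ± 0.191 in Alox5KO medium (SD, n = 3 per group). This pair was picked after its values were seen, so the ratio is a description.

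**Figure D2:**
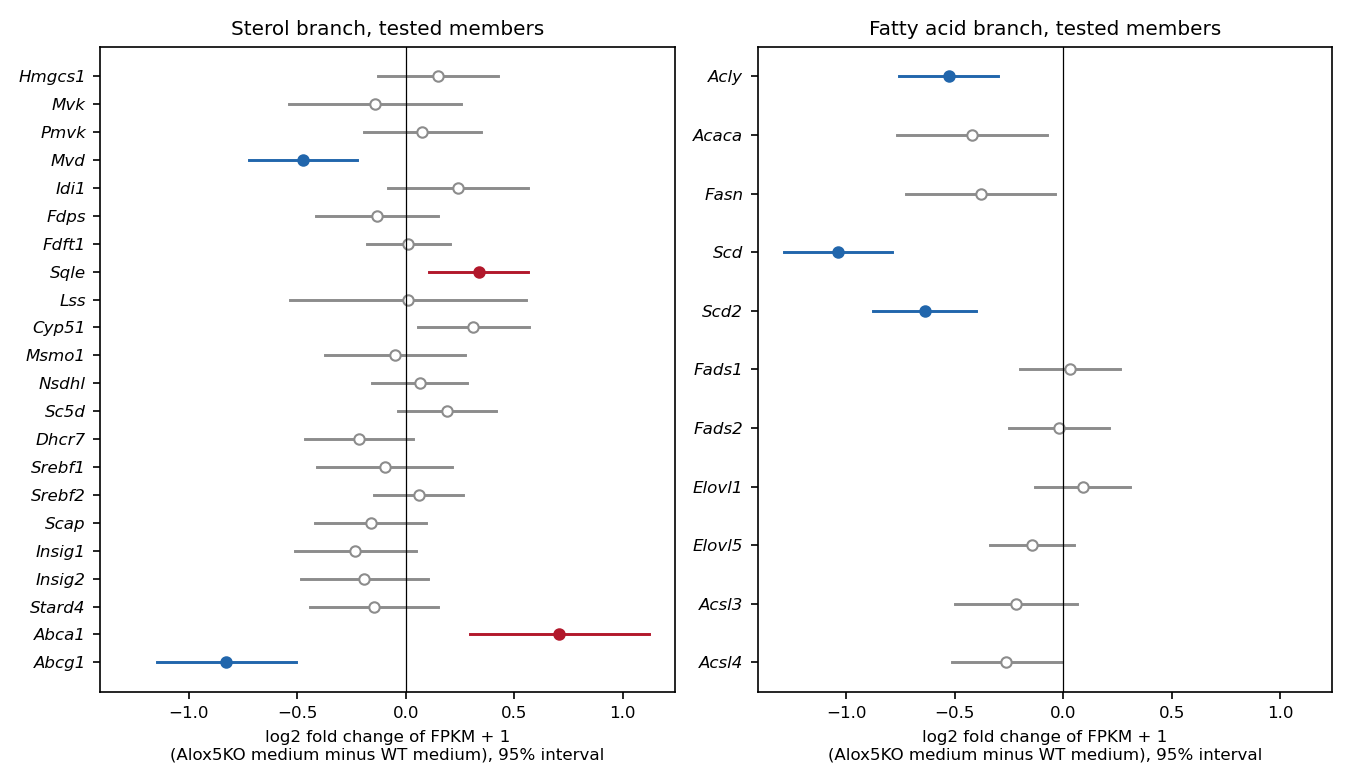
Log2 fold change of FPKM + 1 (Alox5KO medium minus WT medium) with its 95% interval from limma for the 22 sterol and 11 fatty acid members tested. Filled red points are members called higher, filled blue points members called lower, and open grey points did not pass; the fatty acid branch has no red point.

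Many members shared an order among the WT-medium libraries. WT-medium replicate 2 was the highest library of its group for 11 of the 14 synthesis enzymes, beside 32.1% of all tested genes. WT-medium replicate 3 was the lowest for 12 of the 14, beside 39.5% of all tested genes. The exceptions to the low values in replicate 3 were Mvk and Lss, which were highest there. The median deviation of the 14 enzymes from the group mean was 0.11 log2 units in WT-medium replicate 2 and -0.085 in WT-medium replicate 3, against 0.00015 and 0.00027 over all tested genes. The fatty acid genes had part of this order, with WT-medium replicate 2 highest for 9 of 13 but replicate 3 lowest for only 5. Of the 5 regulators Insig1 followed the order of the enzymes, at 46.1, 53.3 and 38.1 FPKM. Srebf1, Srebf2 and Scap ran the other way, highest in WT-medium replicate 3 and lowest in replicate 2, and Insig2 was highest in replicate 1. Among the Alox5KO-medium libraries replicate 3 was highest for 8 of the 14 enzymes, beside 35.4% of all tested genes, and replicate 2 lowest for 8, beside 34.5%. Whether the order differed between the media was not tested. These counts are descriptions of 6 libraries, and the genes are not independent replicates.

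**Figure D3:**
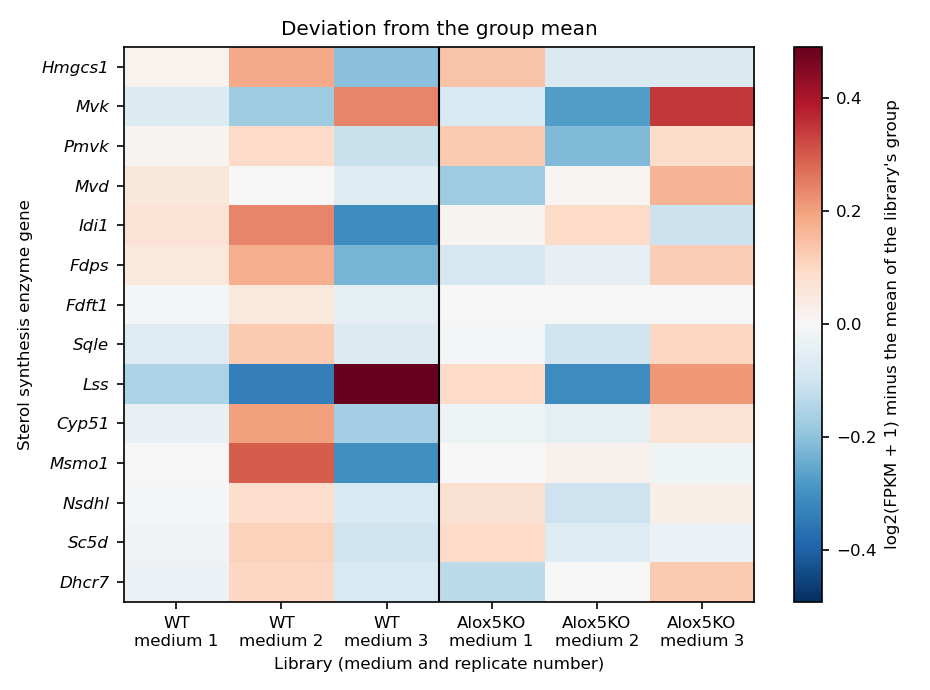
Deviation of log2(FPKM + 1) of each sterol synthesis enzyme (rows) from the mean of its own group in each library (columns), red above and blue below that mean. In the WT medium group replicate 2 is the highest for 11 of the 14 genes and replicate 3 the lowest for 12, with Mvk and Lss going the other way.

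Mouse promoter sequences, available for part of the members, show which motifs these hold near their start sites. They are RefSeq windows of build GRCm38.p6 from 250 bases before to 50 after the gene start, and 27 of the 35 symbols matched. Fdps, Fdft1, Sqle, Stard4, Abcg1, Scd, Scd2 and Fads1 had no window, so the called genes Sqle, Abcg1, Scd and Scd2 are not covered. The sequenced cells were rat, so these are windows of the mouse genes of the same symbol, not of the cells themselves. A script searched both strands for the sterol regulatory element bound by SREBPs, written as TCACNCCAC, for the E-box CACGTG, and for the CCAAT box bound by NF-Y, written as CCAAT. Matches of different motifs may overlap, each gene counted once over all its listed starts, and a match is only a match of letters. The CCAAT box was found in 15 of 17 sterol genes and 5 of 10 fatty acid genes, beside 41.1% of all genes in the table. The E-box was found in 6 of the 27 members, beside 8.09% of all genes. The sterol regulatory element was found in Hmgcs1 alone of the 27, beside 1.44% of all genes. The windows below are those of Hmgcs1, which holds that element at position -137 (its first base, counted from 0 at the gene start) and 4 CCAAT boxes, of Cyp51 and Mvd, which had positive and negative fold changes, and of Acly, the called fatty acid gene with a window. All matches are in capitals. Their places are chr13:119690101-119690400, plus strand for Hmgcs1, chr5:4104648-4104947, minus strand for Cyp51, chr8:122443373-122443672, minus strand for Mvd and chr11:100527951-100528250, minus strand for Acly.
Hmgcs1: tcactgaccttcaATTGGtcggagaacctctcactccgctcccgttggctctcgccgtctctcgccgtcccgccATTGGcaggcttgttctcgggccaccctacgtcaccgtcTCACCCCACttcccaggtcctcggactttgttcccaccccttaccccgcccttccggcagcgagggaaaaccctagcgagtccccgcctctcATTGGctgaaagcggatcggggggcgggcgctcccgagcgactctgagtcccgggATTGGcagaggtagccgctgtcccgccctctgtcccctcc
Cyp51: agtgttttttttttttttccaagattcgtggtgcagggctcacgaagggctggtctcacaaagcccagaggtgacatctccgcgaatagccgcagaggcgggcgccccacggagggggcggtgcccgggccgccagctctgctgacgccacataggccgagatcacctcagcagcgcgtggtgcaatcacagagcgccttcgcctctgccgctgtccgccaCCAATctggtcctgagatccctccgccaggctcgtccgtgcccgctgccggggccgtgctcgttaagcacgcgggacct
Mvd: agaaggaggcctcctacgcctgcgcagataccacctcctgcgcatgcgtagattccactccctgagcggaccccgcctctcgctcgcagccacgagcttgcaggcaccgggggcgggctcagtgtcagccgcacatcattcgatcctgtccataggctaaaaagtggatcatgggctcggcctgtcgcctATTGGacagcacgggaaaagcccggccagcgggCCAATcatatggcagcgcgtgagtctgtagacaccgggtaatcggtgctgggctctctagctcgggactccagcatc
Acly: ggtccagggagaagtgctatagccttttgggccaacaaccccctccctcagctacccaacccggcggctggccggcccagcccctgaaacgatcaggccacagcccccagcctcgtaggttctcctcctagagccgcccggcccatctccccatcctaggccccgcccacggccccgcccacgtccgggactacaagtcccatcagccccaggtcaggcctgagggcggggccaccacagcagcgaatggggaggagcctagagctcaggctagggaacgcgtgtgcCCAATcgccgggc

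The regulators of the pathway showed no called change, beside 20.7% called among all tested genes. Srebf2, which encodes SREBP-2, the main activator of sterol synthesis, had 22.9, 22.5 and 24.3 FPKM in WT medium and 23.2, 24.2 and 25.3 FPKM in Alox5KO medium, a log2 fold change of 0.059 with an interval from -0.14 to 0.26. Srebf1 had 19.7, 17.8 and 23.4 FPKM and then 16.2, 18.7 and 21.9 FPKM, a log2 fold change of -0.097 with an interval from -0.41 to 0.21. Scap, the escort of both factors, had -0.16. The retention genes Insig1 and Insig2 had -0.23 and -0.19, with limma adjusted p of 0.23 and 0.36. Insig1 in the Alox5KO-medium libraries, at 38.3, 38.2 and 39.0 FPKM, sat at the level of the lowest WT-medium library. Without that library, WT-medium replicate 3, Insig1 passed the test with a log2 fold change of -0.36 (limma adjusted p = 0.044). All 5 regulators overlapped between groups, while 37.6% of all tested genes did not. SREBP activity is set by cleavage of the protein, which RNA levels do not measure.

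The 2 ABC transporters that export cholesterol moved in opposite directions. Abca1, which loads cholesterol onto lipid-poor apolipoprotein, had 0.887, 0.779 and 1.41 FPKM in WT medium and 2.38, 2.63 and 1.86 FPKM in Alox5KO medium, with 445 reads summed over the first group and 1106 over the second. The groups did not overlap, and the log2 fold change was 0.71 (SE 0.18, limma adjusted p = 0.023). Abca1 is low on the FPKM scale, so the pseudocount of 1 shrinks this value, which was 1.12 with a pseudocount of 0.1 and 1.21 by voom on recovered reads. Abca1 did not pass when replicate 1 or 2 of either group was left out, at adjusted p from 0.074 to 0.085 (limma).

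Abcg1, which exports cholesterol to lipoprotein particles, had 3.598, 3.61 and 4.52 FPKM in WT medium and 1.93, 1.59 and 1.77 FPKM in Alox5KO medium. It fell by 0.83 on the log2 scale (SE 0.14, limma adjusted p = 0.0032), without overlap, and remained called with each library left out. The ratio of Abcg1 to Abca1 was 3.97 ± 0.716 in WT medium and 0.787 ± 0.175 in Alox5KO medium (SD, n = 3 per group), another pair picked after its values were seen. Stard4, a carrier of cholesterol between membranes, had 4.57, 6.02 and 5.04 FPKM and then 4.63, 4.26 and 4.86 FPKM, and did not pass (log2 fold change -0.15).

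The fatty acid branch was led by the delta-9 desaturases, which put the first double bond into saturated acyl chains. Scd2 was the most abundant member of either branch and ranked 214 of 33682 rows by mean FPKM. It had 442, 508 and 428 FPKM in WT medium and 289.8, 289.7 and 302 FPKM in Alox5KO medium. The groups lay far apart, and Scd2 fell by 0.64 on the log2 scale (SE 0.10, limma adjusted p = 0.0025). Scd, its neighbour on the chromosome, had 23.5, 28.8 and 25.1 FPKM and then 11.8, 11.3 and 13.0 FPKM. Scd fell by 1.04 (SE 0.11, limma adjusted p = 2.2e-04), the only tested member to change by at least 1 log2 unit with a pseudocount of 1. With a pseudocount of 0.1 Abca1 (1.12) and Abcg1 (-1.10) lay slightly past Scd (-1.09), and by voom the values were 1.21, -1.12 and -1.07. The 2 genes lie on chromosome 1, Scd2 from 264059374 to 264072433 on the plus strand and Scd from 264160129 to 264172729 on the minus strand, in the coordinates of the table, for which no rat build is stated. They are close relatives in sequence, so some reads of the abundant Scd2 may have been counted to Scd or the reverse. The ratio of Scd2 to Scd was 17.8 ± 0.907 in WT medium and 24.5 ± 1.23 in Alox5KO medium (SD, n = 3 per group).

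Chain synthesis begins with Acly, ATP citrate lyase, which makes cytosolic acetyl-CoA for both branches. Acly had 75.2, 80.9 and 75.3 FPKM in WT medium and 47.6, 57.7 and 54.6 FPKM in Alox5KO medium, and fell by 0.53 on the log2 scale (SE 0.10, limma adjusted p = 0.0058). Its groups were well separated, and the call held in all 16 alternatives, as did those of Scd and Scd2. Acaca, acetyl-CoA carboxylase, which commits acetyl-CoA to fatty acids, had 9.11, 9.64 and 13.2 FPKM and then 7.02, 8.83 and 7.06 FPKM. Fasn, fatty acid synthase, had 28.5, 30.3 and 37.9 FPKM and then 19.7, 27.6 and 26.5 FPKM. In both genes every Alox5KO-medium value was below every WT-medium value, but neither passed, at log2 fold changes of -0.42 and -0.38 (limma adjusted p = 0.089 and 0.12). WT-medium replicate 3 was the highest library for both.

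The front-end desaturases, which act on polyunsaturated chains, differed little between the media. Fads1 had 44.9 ± 4.15 and 45.8 ± 2.69 FPKM and Fads2 63.1 ± 1.62 and 62.5 ± 6.87 FPKM (SD, n = 3 per group), with log2 fold changes of 0.031 and -0.020 and intervals from -0.20 to 0.26 and from -0.25 to 0.21. The elongase genes Elovl1 and Elovl5 had log2 fold changes of 0.090 and -0.14, and neither passed. Elovl5 was below every WT-medium library in all 3 Alox5KO-medium libraries, at 77.1, 81.3 and 77.1 FPKM against 87.6, 88.6 and 84.3 FPKM. The acyl-CoA synthetase genes Acsl3 and Acsl4 had -0.22 and -0.26, and did not pass (limma adjusted p = 0.27 and 0.14).

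The 2 members under the filter had few reads. Elovl6, the elongase of saturated chains, had 13 reads in the WT-medium libraries together and 7 in the Alox5KO-medium libraries. Lpin1, a phosphatidate phosphatase and transcriptional coregulator, had 150 and 95 reads, at 1.15, 0.836 and 1.48 FPKM and then 0.640, 0.799 and 0.534 FPKM, without overlap. Tested without the filter, Lpin1 had a log2 fold change of -0.37 and a limma adjusted p of 0.19.

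Summed over the 13 fatty acid genes, the level was 868, 962 and 860.4 FPKM in WT medium and 647, 683 and 674 FPKM in Alox5KO medium. The sum was lower in every Alox5KO-medium library. Scd2 made up 51.1% ± 1.56 of it in WT medium and 44.0% ± 1.37 in Alox5KO medium (SD, n = 3 per group). The other 12 genes summed to 438 ± 14.7 and 374 ± 17.9 FPKM (SD, n = 3 per group), so the difference was not carried by Scd2 alone. Of the 11 tested members 9 had a negative fold change, with a median of -0.26. The median of the 22 sterol members was -0.019, with 11 positive and 11 negative. No test of the difference between the branches was made.

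Other genes of these pathways were taken from 4 lists chosen for function, with earlier results of these data known. Of 65 tested, 7 were called higher and 10 lower, 26.2% in all beside 20.7% of all tested genes, and the median log2 fold change was -0.057. Of 18 other genes of sterol synthesis and uptake, 2 were lower and 0 higher, or 11.1% called beside 20.7% of all tested genes, with a median of -0.17. Ebp, the sterol isomerase between the demethylation and desaturation steps, had 23.7, 23.2 and 23.2 FPKM in WT medium and 14.4, 13.0 and 12.2 FPKM in Alox5KO medium, and fell by 0.78 on the log2 scale (limma adjusted p = 5.6e-04). Soat1, which esterifies cholesterol for storage, fell by 0.37 (limma adjusted p = 0.031), a call lost in 4 of the 6 fits that left out 1 library: without WT-medium replicate 1 or 2 or Alox5KO-medium replicate 1 or 3. Acat2, a thiolase, and Mbtps1, the protease that first cuts SREBPs, had -0.40 and -0.22 and did not pass.

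Of the 65 genes the 2 with the largest fold changes, Cyp7b1 and Ch25h, act in oxysterol metabolism. On the list of LXR pathway and sterol efflux genes 4 of 12 tested were lower and 1 higher, beside 10.6% lower and 10.0% higher among all tested genes, with a median of -0.24. Cyp7b1, the hydroxylase that clears oxysterols, had 168, 157 and 154 FPKM in WT medium and 26.6, 17.9 and 23.5 FPKM in Alox5KO medium. It fell by 2.78 on the log2 scale (SE 0.14, limma adjusted p = 3.0e-06). Ch25h, which makes 25-hydroxycholesterol and is induced in inflammation, had 16.7, 14.3 and 11.4 FPKM and then 1.45, 1.41 and 1.71 FPKM, and fell by 2.57 (SE 0.15, limma adjusted p = 6.8e-06). Mylip, an LXR target that degrades lipoprotein receptors, fell by 0.93 (limma adjusted p = 8.0e-04). Cyp27a1, which makes 27-hydroxycholesterol, rose by 0.56 (limma adjusted p = 0.026), a call lost without WT-medium replicate 1 or 2 or Alox5KO-medium replicate 1 or 3. Oxysterols were not measured.

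Among 19 other genes of fatty acid and glycerolipid synthesis 2 were higher and 3 lower, or 26.3% called beside 20.7% of all tested genes, with a median of -0.020. Acsl1, an acyl-CoA synthetase, fell by 0.98, from 17.1 ± 1.39 to 8.14 ± 0.217 FPKM (SD, n = 3 per group; limma adjusted p = 1.9e-04). Acss2, which makes acetyl-CoA from acetate, fell by 0.59 (limma adjusted p = 0.0049). Hacd1, a dehydratase of the elongation cycle, rose by 1.11, and Me1, malic enzyme, a source of NADPH for lipid synthesis, rose by 0.79 (limma adjusted p = 3.1e-04 and 0.0013). Me1 went from 36.8, 45.6 and 40.5 FPKM to 73.1, 63.9 and 77.6 FPKM, without overlap.

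Genes of fatty acid uptake and oxidation included 4 called higher and 1 called lower of 16 tested, beside 10.0% higher and 10.6% lower among all tested genes, with a median of 0.098. The mitochondrial carnitine palmitoyltransferases Cpt1a and Cpt2 rose by 0.87 and 0.58 (limma adjusted p = 0.017 and 0.00997). Cpt1a went from 3.89, 2.88 and 6.08 FPKM to 8.20, 7.80 and 9.23 FPKM, without overlap, and was not called when WT-medium replicate 1 or replicate 1 or 3 of the Alox5KO-medium group was left out. Plin2, the coat protein of lipid droplets, rose by 0.77, from 40.1 ± 2.35 to 69.1 ± 3.99 FPKM (SD, n = 3 per group; limma adjusted p = 5.1e-04). Angptl4, a secreted inhibitor of lipoprotein lipase, fell by 0.85 (limma adjusted p = 0.0013). In the same libraries 4 of 7 tested cardiomyocyte markers and 5 of 6 tested smooth muscle and pericyte markers were called higher, beside 10.0% of all tested genes. The part of these markers' shifts in the counts above was not tested.

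**Figure D4:**
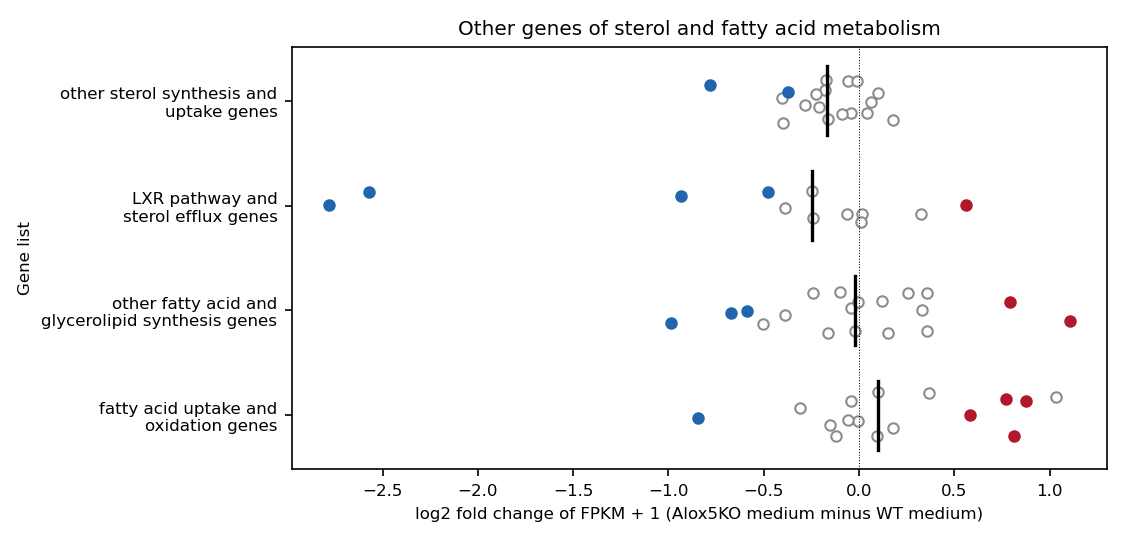
Log2 fold change of FPKM + 1 (Alox5KO medium minus WT medium) of the tested genes on 4 further lists, 1 point per gene, red for called higher, blue for called lower and open for not called, with the black bar at the list's median; vertical scatter within a list has no meaning. The 2 points farthest left are Cyp7b1 and Ch25h.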

How the data were processed

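The authors deposited FPKM values, 1 column per sample, with gene length, name and position per row, per the file headers. The submitters' processing notes list, without roles, mm10, DESeq2 1.20.0, featureCounts 1.5.0-p3, HISAT2 2.0.5, fastp and CASAVA 1.8, yet 32883 of 33682 rows carry rat Ensembl identifiers and 0 carry mouse ones. The rat build and strand setting are not given in the sources used here. RNA was isolated with TRIzol and made into NEBNext Ultra libraries, per the labels' protocols.

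Columns were assigned to samples by name. FPKM times gene length gave whole reads for 100% of values above 0, within 0.05 reads. Libraries held 13284088 to 15766187 such reads, and 3 reads on a gene of 1 kilobase came to 0.185 to 0.228 FPKM. Values were tested as log2(FPKM + 1), which understates changes of low genes, for 12341 genes whose mean reached 1 FPKM. The test was limma 3.58.1 in R 4.3.3, with trend and robust prior, two-sided, Benjamini-Hochberg at 0.05, and no block. It was tested on simulated data.

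Deviations from group means correlated across all tested genes at -0.096, 0.10 and 0.17 between the groups for replicates 1, 2 and 3. Replicates 2 and 3 correlated best with their own number and replicate 1 did not, so whether the numbers pair the samples is not settled. Members, their roles and the other lists were chosen with earlier results of these data known. The genes named are all members, the 4 with the smallest p of each other list and the most abundant of each marker list. Of 86 listed symbols 81 were matched. Alternatives covered pseudocounts, filters, scaling, the prior, a replicate block, each library left out and voom.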

Additional observations from a re-analysis of the deposited data

How the results depend on the processing

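Each result was recomputed under 16 alternatives. For 49 single genes (members and others named) these gave 780 values. Of these, 745 stayed on the same side of the threshold, 29 lost the call, 6 gained it and 0 were called in the opposite direction. The sign of genes that were not called could change, as for Lss, whose log2 fold change ran from -0.16 to 0.26. The called set of the fatty acid branch numbered 3 lower and 0 higher throughout, except 4 lower with the replicate block, where Fasn passed (limma adjusted p = 0.046), and in the sterol branch that block left 1 called higher. Not every sample correlated best with its own replicate number, so the block is only a hint from the data. Leaving out 1 library moved the count of all tested genes called higher to between 787 and 1228 and that of all tested genes called lower to between 850 and 1310, the lowest without WT-medium replicate 1. It gave 0 to 1 sterol members higher and 1 to 3 lower. The median of the fatty acid branch ran from -0.32 to -0.16, nearest to 0 without Alox5KO-medium replicate 3, and 4 to 8 other pathway genes were called higher, the lowest count without WT-medium replicate 1 or Alox5KO-medium replicate 1. With no filter, a mean of at least 5 FPKM, median centring, or no trend and robust prior, 1 sterol member was higher, and at 5 FPKM 1 was lower, since Abca1 and Abcg1 were then not tested. With quantile normalization, TPM scaling or voom 3 were higher, within 1.5 times of 2. TPM scaling moved the sterol median to 0.039 and the other pathway median to 0.013, so neither median kept its sign. The sterol branch median log2 fold change was also positive with quantile normalization (0.0037), a mean of at least 5 FPKM (0.010), voom (0.0069) and without Alox5KO-medium replicate 2 (0.0029). Voom called 11 other pathway genes higher. Voom, on recovered reads, was chosen after seeing the data. It stands in place of an edgeR fit that had been planned if whole reads could be recovered. No edgeR or DESeq2 fit was run. Apart from the filter, the causes were not tested.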
